A study of Homo sapiens with 6 samples.

Results

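The genes described here are 45 genes of DNA replication other than the MCM helicase subunits, taken by gene symbol from a list of licensing factors, initiation factors, polymerases, the sliding clamp and its loader, single-strand binding proteins, nucleotide supply enzymes, chromatin assembly factors and S-phase regulators. All 45 were found among the 58735 genes of the deposited table, and all 45 passed the filter on low counts that left 17299 genes for testing. The cells were Ishikawa, a human endometrial cancer cell line. They were grown in DMEM with fetal bovine serum and transfected with lipo2000, a lipid reagent, and RNA was taken 48 hours later. The control group received a negative control siRNA (siNC, 3 libraries) and the knockdown group an siRNA against TCF19 (siTCF19, 3 libraries). Both groups therefore share the cell line, the serum and the lipofection, and the sources used here give neither the siRNA sequences nor how many siRNAs were used. Nothing in the labels ties the 3 libraries of either group to different cultures, and the p-values describe the spread among these 6 libraries alone, which may be technical.

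Replication starts at origins bound by the origin recognition complex (ORC). CDC6 and CDT1 load the MCM helicase there in G1, and geminin (GMNN) blocks CDT1 afterwards. At the start of S phase the kinase of CDC7 and DBF4 acts on the loaded helicase, and CDC45 and the GINS proteins join it to form the active CMG helicase. Polymerase alpha-primase then lays down primers, polymerase epsilon copies the leading strand and polymerase delta the lagging strand, held by the PCNA clamp that the RFC complex loads. Many of these genes are transcribed in late G1 and S phase under E2F transcription factors, and high expression is usual in dividing tumour cells. In bulk libraries, fewer cells in S phase and less RNA per cell cannot be told apart.

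TCF19 checks the labels. Its level was 177, 185 and 177 CPM (counts scaled to a common library size, after TMM scaling) in siNC and 42.7, 35.3 and 39.1 CPM in siTCF19, a fall of 2.20 ± 0.06 on the log2 scale (log2 fold change -2.20, SE). Library totals ran from 14680022 to 16244705 counts. Of 10 epithelial markers, EPCAM was at 196, PAX8 at 114 and KRT8 at 111 FPKM (fragments per length of gene and depth of library) over the 6 libraries, while the oestrogen receptor gene ESR1 and the progesterone receptor gene PGR had 0 to 4 counts in each library. The 10 markers summed to between 726 and 770.3 FPKM among siNC libraries and to between 716 and 754 FPKM among siTCF19 libraries. Within these sums, 3 of the 8 tested markers rose (CDH1 by 53.0%, KRT19 by 35.9%, and CLDN3), 2 fell (KRT8 by 24.4%, KRT18 by 25.5%) and EPCAM, PAX8 and CLDN4 were not called, and the part of these changes in the results was not tested. Of 12 markers of blood, endothelial, stromal and liver cells, 3 were tested and 1, DCN, had no count. The 12 summed to between 16.8 and 17.1 FPKM among siNC libraries and between 13.1 and 14.2 FPKM among siTCF19 libraries, most of it COL1A2, which fell, while COL1A1 and VWF rose, and their part in the results was not tested.

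The replication genes leaned lower after TCF19 knockdown, by small amounts. At an edgeR adjusted p under 0.05, 16 of the 45 fell, 5 rose and 24 were not called. Among all tested genes 20.8% fell and 20.7% rose, and among the 8748 genes within the CPM range of the replication genes 27.6% fell and 26.7% rose. In percent of the 45, 35.6% fell and 11.1% rose. The median log2 fold change was -0.10, against 0.00091 over all tested genes, and 32 of the 45 values were below 0. No replication gene changed by 1.5-fold or more, a size that 11.8% of all tested genes passed with a call. Of the 8748 genes within the CPM range of the replication genes, 637 passed it with a call. With library-size-only scaling, 10 of the 45 fell and 7 rose. ORC1 (-0.16), ORC6 (-0.10), CDC6 (-0.08), RPA2 (-0.13), RRM1 (-0.07) and DUT (-0.11) were then no longer called. That scaling moved the median of all genes to 0.06, with 16.4% lower and 26.1% higher among them, and the median of the 45 genes lay 0.10 below the median of all genes under both scalings (-0.10).

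As a sum, the 45 genes held 0.416%, 0.416% and 0.413% of the counts in siNC and 0.396%, 0.402% and 0.405% in siTCF19. All 3 siTCF19 libraries lay below all 3 siNC libraries. In 18 of the 45 genes every siTCF19 library was below every siNC library, and in 6 every one was above. In 21 the groups overlapped. The shares over all tested genes were 24.9% below, 24.4% above and 49.2% in either direction. Of the 8748 tested genes within the CPM range of the replication genes, 2728 were below, 2572 above and 3448 overlapped. The authors' deposited table lists 13 of the 45 as lower and 5 as higher at an adjusted p under 0.05. Of the 32587 genes with a listed value there, 8.94% are lower and 8.67% higher. Among the 8748 tested genes within the CPM range of the replication genes, it lists 2087 as lower and 2003 as higher. That table rests on the same libraries. The called genes that it does not list under that threshold are ORC6, CDC6 and DUT.

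**Figure D1:**
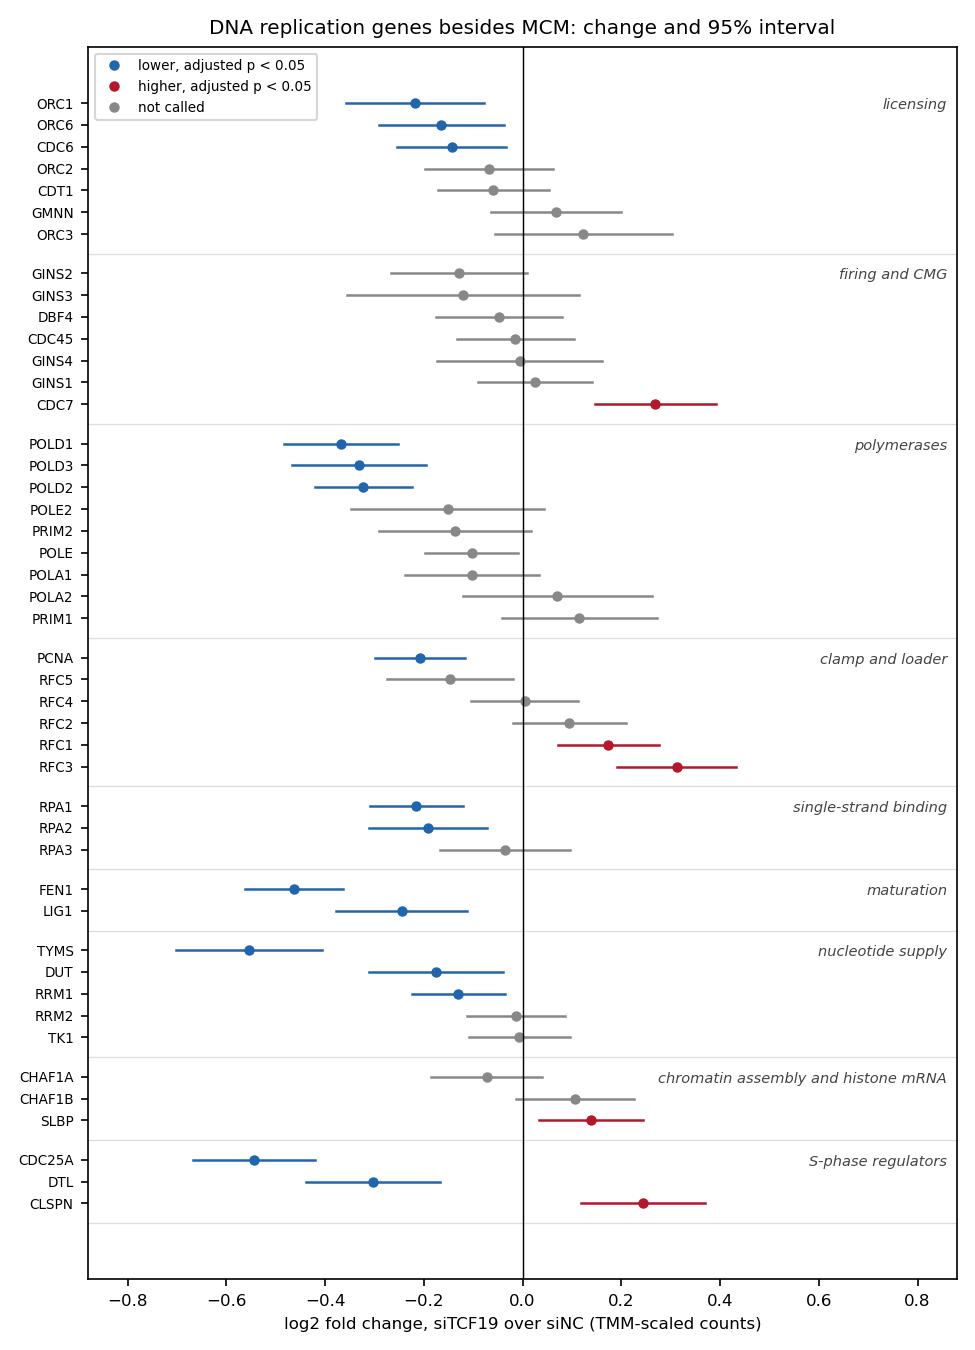
Log2 fold change (siTCF19 over siNC, x axis) of the 45 replication genes, grouped by role, with 95% intervals as bars, 3 libraries per group; blue points are the 16 genes that fell, red the 5 that rose and grey the 24 not called. TYMS, CDC25A, FEN1 and POLD1 lie farthest left, and RFC3 and CDC7 farthest right.

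Promoter sequence was read for the replication genes because many are E2F targets. The RefSeq promoter table (GRCh38.p14, 250 bases before to 50 after each start) holds 41 of the 45 genes. An E2F motif, spelled TTTCGCGC, TTTCCCGC, TTTGGCGC or TTTGCCGC on either strand, stands in at least 1 listed promoter of 20 of the 41 genes (48.8%). The same letters stand in 6.45% of the 11140 tested genes in the table and in 3.31% of all 35116 promoters. Among the genes with a promoter, the motif stands in 7 of 14 that fell, 3 of 5 that rose and 10 of 22 not called. CCAAT, on either strand, stands in 24 of the 41 (58.5%, against 42.7% of tested genes) and TTTGAA in 3 (7.32%, against 13.5%). A match is a description of these letters and not a binding site. Shown are the 250 bases before the start of the 3 genes with the lowest p among those that fell and of the gene with the lowest p among those that rose, 5′ to 3′ on the gene's own strand, with the E2F letters in capitals.
FEN1, chr11:61792661-61792910, plus strand: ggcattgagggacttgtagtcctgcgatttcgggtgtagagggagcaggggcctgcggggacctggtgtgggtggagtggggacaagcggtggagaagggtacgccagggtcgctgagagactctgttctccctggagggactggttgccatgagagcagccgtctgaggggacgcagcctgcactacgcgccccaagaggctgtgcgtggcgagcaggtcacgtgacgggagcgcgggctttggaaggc
CDC25A, chr3:48188418-48188667, minus strand: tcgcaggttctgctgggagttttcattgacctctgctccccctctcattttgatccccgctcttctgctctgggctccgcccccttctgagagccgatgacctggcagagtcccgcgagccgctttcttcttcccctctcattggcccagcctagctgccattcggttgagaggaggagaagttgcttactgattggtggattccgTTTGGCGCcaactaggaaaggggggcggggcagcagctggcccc
TYMS, chr18:657403-657652, plus strand: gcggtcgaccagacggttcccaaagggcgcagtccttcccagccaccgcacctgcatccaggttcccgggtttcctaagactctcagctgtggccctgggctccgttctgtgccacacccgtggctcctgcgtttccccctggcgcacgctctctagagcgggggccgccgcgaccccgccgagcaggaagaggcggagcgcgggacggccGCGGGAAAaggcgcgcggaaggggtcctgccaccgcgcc
RFC3, chr13:33817899-33818148, plus strand: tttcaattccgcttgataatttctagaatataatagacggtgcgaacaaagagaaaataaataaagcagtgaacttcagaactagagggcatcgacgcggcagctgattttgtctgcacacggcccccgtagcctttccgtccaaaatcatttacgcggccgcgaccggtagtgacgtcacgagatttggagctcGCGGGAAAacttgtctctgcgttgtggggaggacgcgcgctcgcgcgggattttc
Both TYMS, which fell, and RFC3, which rose, hold the letters GCGGGAAA, the reverse complement of TTTCCCGC, at 39 and 55 bases before the start. CDC25A holds TTTGGCGC at 44 bases before the start. In FEN1, the gene with the lowest p of the 45, none of the spelled motifs stands in the window. The starts used here are those of RefSeq. The FEN1 gene as counted begins at 61792637, so its window lies inside that gene and the bases before 61792637 were not read. In TYMS and RFC3, counted from 657604 and 33818049, the letters in capitals also lie inside the counted gene.

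Licensing factors changed little, with 3 of 7 (42.9%) falling and 0 rising. Of all tested genes 41.5% were called in either direction, and of those within the CPM range of the replication genes 54.3%. The counts of calls in the roles below stand beside the same shares, and each role holds few genes. ORC1, the ORC subunit that leaves chromatin after G1, had 53.7, 55.9 and 50.9 CPM in siNC and 41.8, 48.9 and 47.4 CPM in siTCF19. It fell by 14.0% (95% interval -21.9% to -5.32%, adjusted p = 0.00939), and no siTCF19 library reached the lowest siNC library. ORC6 had 68.9, 64.0 and 68.6 CPM against 55.9, 63.2 and 60.7 CPM, a log2 fold change of -0.16 ± 0.06 (adjusted p = 0.0314). The groups of ORC6 were parted by less than 1 CPM. CDC6, the loader ATPase, had 109, 114 and 108 CPM against 106, 93.9 and 101 CPM, with a log2 fold change of -0.14 ± 0.05 (adjusted p = 0.0321). Its siTCF19 replicate 1 lay close to the lowest siNC library. ORC1 was not called in 3 of 15 alternative settings, ORC6 in 6 and CDC6 in 8. Of the left-out libraries, siNC replicate 2 (adjusted p = 0.0575) and siTCF19 replicate 1 (0.136) ended the call of ORC1. The call of ORC6 ended without siNC replicate 1 (0.109), siNC replicate 3 (0.118) or siTCF19 replicate 1 (0.239). CDC6 was not called without siNC replicate 1 (0.057), siNC replicate 2 (0.128), siNC replicate 3 (0.0537) or siTCF19 replicate 2 (0.203, with the log2 fold change at -0.09).

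The other licensing genes were not called. ORC3, an ORC subunit, had 27.2, 25 and 23.7 CPM in siNC and 28.7, 29.8 and 24.1 CPM in siTCF19, with overlapping groups (log2 fold change 0.12, adjusted p = 0.282). ORC2 had a log2 fold change of -0.07 (95% interval of the change -12.8% to 4.38%). CDT1, the licensing gene with the highest CPM, had 105, 116 and 104 CPM in siNC and 107, 98.9 and 106 CPM in siTCF19, with overlapping groups. CDT1 and its inhibitor geminin (GMNN) had log2 fold changes of -0.06 and 0.07, with intervals of -11.2% to 3.75% and -4.39% to 14.8%. Per gene length, CDT1 was at 31.5 FPKM and GMNN at 20.7 FPKM over the 6 libraries. The log2 ratio of CDT1 to GMNN (FPKM) was 0.65, 0.78 and 0.57 in siNC and 0.59, 0.39 and 0.65 in siTCF19, so the groups overlapped.

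Among the 7 initiation genes, CDC7 rose and the other 6 were not called. CDC7, the kinase subunit that triggers origin firing (chromosome 1, 91500893 to 91525764, plus strand, hg38), had 58.8, 59.5 and 60.0 CPM in siNC and 67.8, 73.9 and 73.2 CPM in siTCF19. All siTCF19 libraries lay above all siNC libraries, and it rose by 20.5% (95% interval 10.7% to 31.1%, adjusted p = 0.000314). DBF4, the regulatory subunit that activates CDC7, had 60.1, 55.1 and 58.0 CPM against 57.4, 54.3 and 55.7 CPM (log2 fold change -0.05, adjusted p = 0.58). The log2 ratio of CDC7 to DBF4 (FPKM) was 0.33, 0.48 and 0.41 in siNC and 0.61, 0.81 and 0.76 in siTCF19. The ratio was thus higher in all 3 siTCF19 libraries, in a pair chosen after its values were seen.

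CDC45 and the 4 GINS genes, which complete the CMG helicase, did not pass the test. GINS1 had 99.1, 88.2 and 92.7 CPM in siNC and 89.8, 98.3 and 96.9 CPM in siTCF19 (log2 fold change 0.03, adjusted p = 0.757). GINS2 had 57.7, 57.7 and 48.8 CPM against 49.0, 50.3 and 50.9 CPM (-0.13, adjusted p = 0.133). Its siNC replicate 3 sat with the siTCF19 libraries, and GINS2 was called lower without it (-0.20, adjusted p = 0.0297). GINS3 was the lowest of the 45 genes, at 15.5, 17.4 and 15.3 CPM against 14.5, 18.0 and 12 CPM (-0.12, adjusted p = 0.438). CDC45 and GINS4 had log2 fold changes of -0.01 each, with intervals of -8.80% to 7.43% and -11.3% to 11.9%.

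The remaining subunits of CMG, MCM2 to MCM7, fell in 6 of 6 cases. Their log2 fold changes ran from -0.52 in MCM7 to -0.25 in MCM6, with adjusted p-values of 3.58e-12 to 5.85e-05. Averaged over subunits and set against the siNC mean of each gene, the log2 level of MCM2 to MCM7 was -0.37, -0.36 and -0.30 in the siTCF19 libraries. The same average over CDC45 and the GINS genes was -0.08, 0.02 and -0.10, within or near the siNC range of -0.08 to 0.05. The difference between these averages was not tested. In FPKM, GINS1 (22.9) was 7.65 times as high as GINS3 (3.0) over the 6 libraries.

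**Figure D2:**
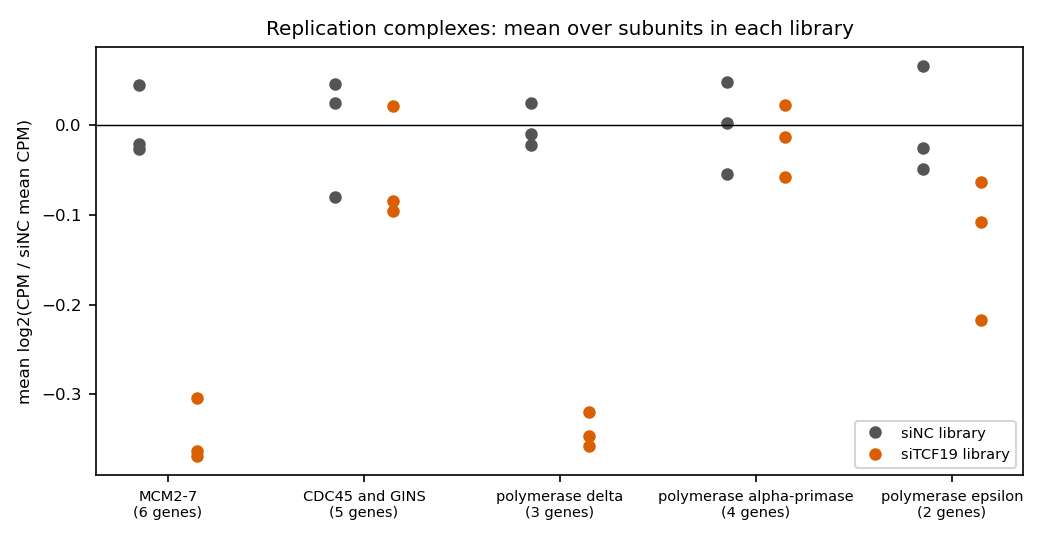
Mean over subunits of log2(CPM / mean siNC CPM) in each library (y axis), for MCM2 to MCM7, CDC45 with GINS, and the subunits of the 3 replicative polymerases among the 45 genes (POLD4, POLE3 and POLE4 are not included); grey points are siNC and orange points siTCF19 libraries. The siTCF19 points of MCM2 to MCM7 and of polymerase delta lie at -0.30 or lower, and those of CDC45 with GINS and of polymerase alpha-primase overlap the siNC points. Those of polymerase epsilon (-0.22, -0.11 and -0.06) lie below its siNC points (-0.03, -0.05 and 0.07).

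Of the 9 polymerase genes, the 3 of polymerase delta (POLD1, POLD2 and POLD3) fell and the other 6 were not called. POLD2, the accessory subunit, had 258, 281 and 256 CPM in siNC and 207, 208 and 221 CPM in siTCF19. It fell by 20.0% (95% interval -25.2% to -14.4%, adjusted p = 4.95e-07). POLD1, the catalytic subunit (chromosome 19, 50384204 to 50418016, plus strand), had 103, 118 and 110.5 CPM against 87.0, 81.6 and 89.1 CPM and fell by 22.5% (-28.4% to -16.0%, adjusted p = 1.01e-06). POLD3, a non-catalytic subunit that binds PCNA, had 61.8, 53.3 and 57.0 CPM against 45.6, 47.2 and 44.0 CPM and fell by 20.5% (-27.6% to -12.6%, adjusted p = 8.77e-05). In each of these genes the groups did not overlap. The log2 fold changes of the 3 subunits, -0.37 to -0.32, lay within 1 standard error of each other. These calls held in all 15 alternative settings. POLD4, the small subunit of polymerase delta and not among the 45 genes, was low, at 1.58, 1.85 and 1.73 CPM in siNC and 1.90, 2.47 and 3.03 CPM in siTCF19. Its siTCF19 libraries were all higher, but it was not called (0.52 ± 0.27, adjusted p = 0.13).

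The 2 polymerase epsilon genes and the 4 alpha-primase genes among the 45 were not called. POLE, the catalytic subunit of epsilon, had 226, 234 and 222 CPM in siNC and 209, 207 and 219 CPM in siTCF19. Its groups did not overlap, but the difference was small (-0.10 ± 0.05, adjusted p = 0.0737), and without siTCF19 replicate 3 it was called (-0.12, adjusted p = 0.0447). POLE2 had a log2 fold change of -0.15 (interval of the change -21.4% to 3.11%). For alpha-primase, the catalytic subunit POLA1 had -0.10, the primase subunits PRIM1 and PRIM2 had 0.12 and -0.14, and POLA2 had 0.07. PRIM1 was called higher without siTCF19 replicate 1 (0.21, adjusted p = 0.04). Averaged over the subunits among the 45 genes, polymerase delta (3 genes) was at -0.35, -0.36 and -0.32 in the siTCF19 libraries, epsilon (POLE and POLE2) at -0.22, -0.11 and -0.06 and alpha-primase (4 genes) at -0.06, 0.02 and -0.01. The siNC values of epsilon, -0.03, -0.05 and 0.07, were all above its siTCF19 values. These averages leave out POLD4 and the histone-fold subunits of epsilon, of which POLE3 fell (-0.43, adjusted p = 1.65e-09) and POLE4 was not called (0.12, adjusted p = 0.324), so they do not compare whole complexes. Of the exonic bases of POLA2, 35.1% are shared with another annotated gene, so its value is uncertain.

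**Figure D3:**
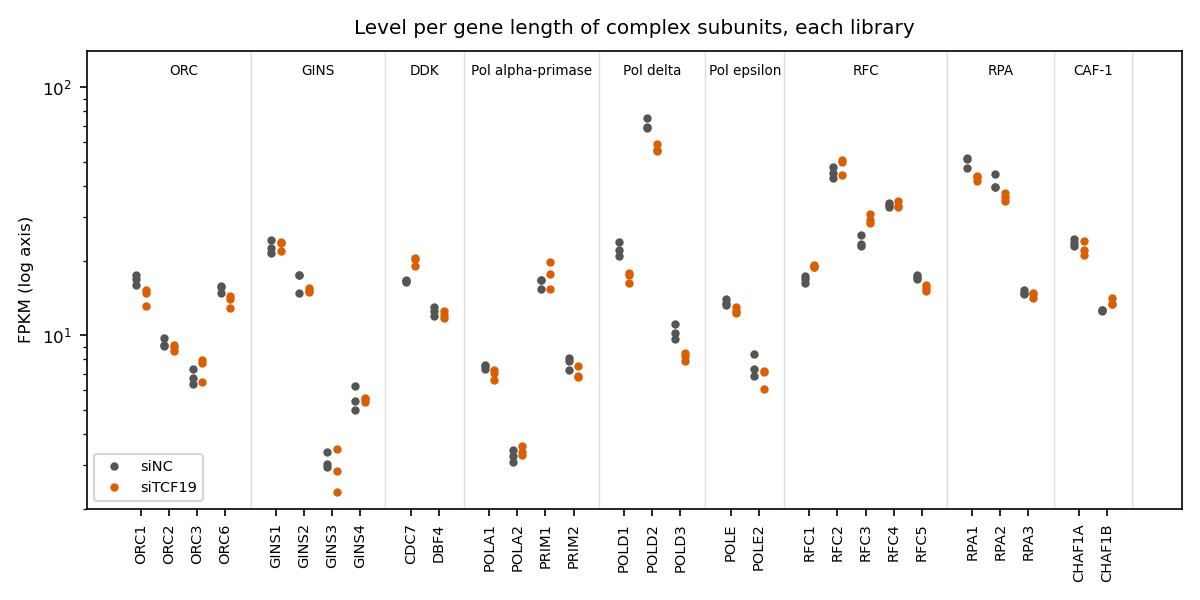
FPKM (y axis, log scale) of the subunits among the 45 genes of 9 replication complexes, with 1 point per library, grey for siNC and orange for siTCF19. Subunits of 1 complex stand at different levels: POLD2 stands at 64.0 FPKM and POLD3 at 9.27 FPKM over the 6 libraries.

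The sliding clamp and its loader moved in both directions, with 1 fall, 2 rises and 3 genes not called. PCNA, the clamp, was the most abundant of the 45 genes per gene length (185 FPKM over the 6 libraries). Its level was 299.7, 292 and 289.9 CPM in siNC and 257, 254 and 252 CPM in siTCF19, with no overlap, and it fell by 13.4% (95% interval -18.7% to -7.80%, adjusted p = 0.000192). RFC3, a small loader subunit (chromosome 13, 33818049 to 33966558, plus strand), had the largest rise of the 45 genes. It had 73.5, 66.1 and 67.7 CPM in siNC and 84.5, 90.3 and 82.4 CPM in siTCF19 and rose by 24.1% (14.2% to 34.9%, adjusted p = 3.38e-05). RFC1, the large subunit that opens the clamp, had 114, 110.0 and 118 CPM against 129, 129 and 128 CPM and rose by 12.8% (5.03% to 21.2%, adjusted p = 0.00521). The groups of RFC3 and RFC1 did not overlap.

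RFC5 lay on the other side of 0. It had 57.0, 56.0 and 55.5 CPM in siNC and 50.4, 52.4 and 49.4 CPM in siTCF19, with no overlap, but was not called (-0.15 ± 0.06, adjusted p = 0.0583), while the test on log2(FPKM + 1) called it (adjusted p = 0.0266). RFC2 (0.10) and RFC4 (0.0040) were not called, and RFC2 was called higher with library-size-only scaling (0.16, adjusted p = 0.0211) and when siTCF19 replicate 2 was dropped (0.16, adjusted p = 0.0242). The log2 ratio of RFC3 to RFC5 (FPKM) was 0.54, 0.42 and 0.46 in siNC and 0.92, 0.96 and 0.92 in siTCF19. The ratio was higher in every siTCF19 library than in any siNC library, again in a pair picked after its values were seen.

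Of the 3 subunits of RPA, which coats single-stranded DNA, 2 fell. RPA1, the large DNA-binding subunit, had 283, 286 and 263 CPM in siNC and 231, 243 and 244 CPM in siTCF19 and fell by 13.8% (95% interval -19.3% to -7.99%, adjusted p = 0.000226). RPA2 had 80.6, 91.1 and 81.1 CPM against 75.9, 71.5 and 73.9 CPM and fell by 12.5% (-19.4% to -4.87%, adjusted p = 0.00794). In both genes all siTCF19 libraries were lower. The call of RPA2 was lost when siNC replicate 2 was dropped (-0.13, adjusted p = 0.106) and with library-size-only scaling (-0.13, adjusted p = 0.0666). RPA3, the small subunit, had 49.6, 48.1 and 48.1 CPM against 48.3, 46.2 and 47.8 CPM and was not called (-0.04, interval of the change -11% to 6.95%).

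The 2 Okazaki fragment genes among the 45, FEN1 and LIG1, fell. FEN1, the flap endonuclease that trims the RNA primer (ENSG00000168496, chromosome 11, 61792637 to 61797244, plus strand), had 179, 181 and 183 CPM in siNC and 132, 127 and 135 CPM in siTCF19. The groups did not overlap, and FEN1 fell by 27.4% (95% interval -32.2% to -22.3%, adjusted p = 1.97e-10). LIG1, the ligase that seals the nick, had 56.6, 64.3 and 62.7 CPM against 51.4, 49.3 and 54.3 CPM and fell by 15.6% (-23.0% to -7.54%, adjusted p = 0.00217). Its siNC replicate 1 was the lowest control and still lay above all siTCF19 libraries. Both calls held in all 15 alternative settings. Of the other genes that act on RNA primers and flaps, the nuclease DNA2 (0.03) and the RNase H2 genes RNASEH2A (-0.16) and RNASEH2B (-0.05) were not called, and RNASEH2C was called higher close to the threshold (0.19, adjusted p = 0.048), with overlapping groups.

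Of the 5 nucleotide supply genes 3 fell, and TYMS had the largest fall of the 45 genes. TYMS, thymidylate synthase (ENSG00000176890, chromosome 18, 657604 to 673578, plus strand), had 43.6, 45.6 and 43.6 CPM in siNC and 30.6, 31.0 and 28.8 CPM in siTCF19. It fell by 31.9% (95% interval -38.5% to -24.6%, adjusted p = 3.54e-08). Of its exonic bases 46.6% are shared with ENOSF1 and TYMSOS on the other strand, and without the strand setting their reads cannot be told apart. ENOSF1 was at 90.2 CPM in siNC and 99.2 CPM in siTCF19 and TYMSOS at 2.72 and 3.41 CPM, both not called. RRM1, the large subunit of ribonucleotide reductase, had 232, 227 and 238 CPM against 207, 215 and 215 CPM (-0.13 ± 0.05, adjusted p = 0.0215). DUT, which removes dUTP, had 79.3, 68.0 and 66.1 CPM against 67.3, 58.0 and 63.4 CPM (-0.17 ± 0.07, adjusted p = 0.0326), and its groups overlapped. DUT also has 8 annotated pseudogenes that can share its reads.

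The calls of RRM1 and DUT were lost in 5 and 6 of 15 alternative settings. For RRM1, dropping siNC replicate 1 gave an adjusted p of 0.0554, dropping siNC replicate 3 gave 0.126 and dropping siTCF19 replicate 1 gave 0.128. For DUT the values were 0.352 on dropping siNC replicate 1 (log2 fold change -0.09), 0.216 on dropping siTCF19 replicate 2 (-0.11) and 0.0536 on dropping siTCF19 replicate 3. RRM2, the small subunit of the reductase, had 176, 174 and 172 CPM in siNC and 165, 182 and 171 CPM in siTCF19, with overlapping groups (-0.01, interval of the change -7.46% to 6.20%). TK1, which salvages thymidine, was likewise not called (-0.01, interval -7.30% to 6.93%) and at 99.4 FPKM was the second most abundant of the 45 genes.

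Of the 3 chromatin assembly and histone mRNA genes, 1 was called higher and 0 lower. SLBP, which binds the stem-loop of histone mRNAs, had 117, 114 and 113 CPM in siNC and 129.6, 120.0 and 129 CPM in siTCF19 and rose by 10.1% (95% interval 2.35% to 18.4%, adjusted p = 0.0291). That call was lost in 6 of 15 alternative settings, among them without siNC replicate 2 (adjusted p = 0.057), siNC replicate 3 (0.118), siTCF19 replicate 1 (0.113) or siTCF19 replicate 3 (0.0576). CHAF1B, the middle subunit of CAF-1, which deposits new histones, had 65.2, 64.6 and 65.8 CPM against 68.6, 69.2 and 72.8 CPM. Its siTCF19 libraries were all higher, but it was not called (0.11 ± 0.06, adjusted p = 0.152) except with library-size-only scaling (0.17, adjusted p = 0.0203). CHAF1A, the large subunit, had 99.0, 105 and 102 CPM against 91.4, 96.4 and 104 CPM, with overlapping groups (-0.07, adjusted p = 0.317).

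All 3 S-phase regulators were called, 2 lower and 1 higher. CDC25A, the phosphatase that activates CDK2 at the entry to S phase (chromosome 3, 48157146 to 48188402, minus strand), had 75.9, 77.8 and 82.3 CPM in siNC and 51.8, 54.3 and 55.8 CPM in siTCF19. It fell by 31.4% (95% interval -37.0% to -25.3%, adjusted p = 8.19e-10). DTL, the substrate receptor of the ubiquitin ligase that removes CDT1 in S phase, had 52.2, 53.5 and 59.3 CPM against 45.9, 43.4 and 44.6 CPM and fell by 18.9% (-26.2% to -10.9%, adjusted p = 0.000279). CLSPN, the adaptor claspin of the replication checkpoint, had 53.3, 55.3 and 52.5 CPM against 62.3, 66.1 and 62.5 CPM and rose by 18.4% (8.54% to 29.1%, adjusted p = 0.00137). In none of these genes did the groups overlap, and the 3 calls held in all 15 alternative settings.

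**Figure D4:**
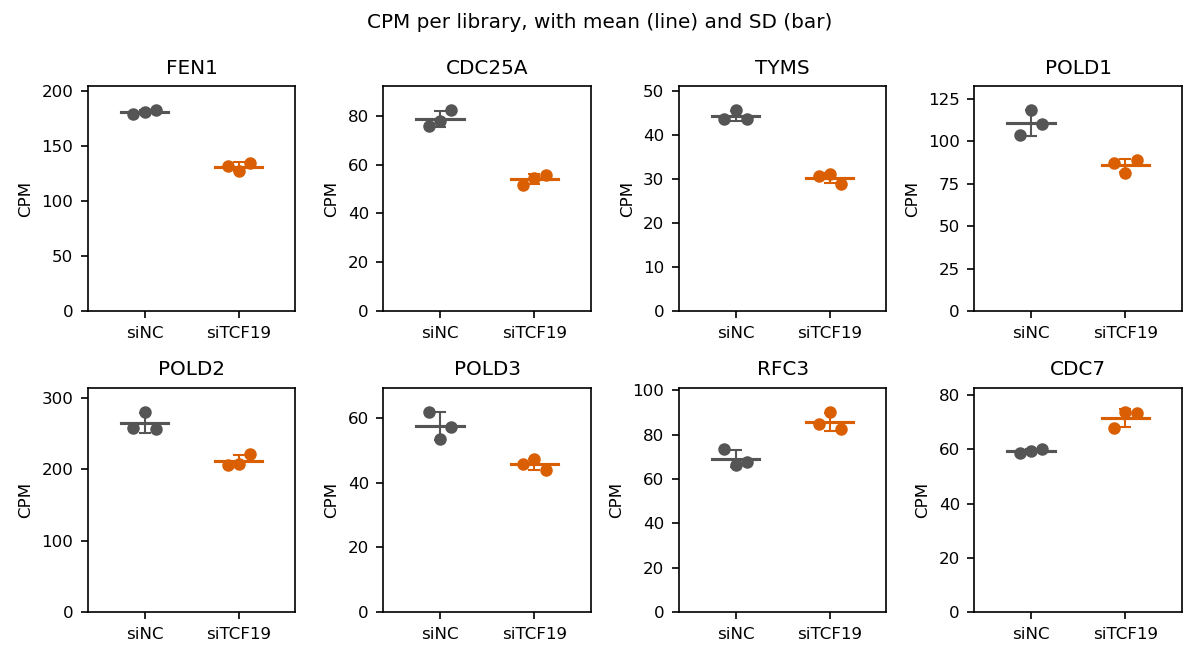
CPM (y axis, from 0) of 8 replication genes in each siNC (grey) and siTCF19 (orange) library, with the group mean as a line and the SD as a bar, 3 libraries per group. No siTCF19 library reaches the siNC libraries in FEN1, CDC25A, TYMS, POLD1, POLD2 and POLD3, and every siTCF19 library exceeds them in RFC3 and CDC7.

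The 3′ untranslated regions of the replication genes were read for the words TGGTCAA and GGTCAAA, whose carriers had been found lower than other genes in an earlier analysis of these same libraries, so their values here are a description and no separate evidence. Among 13159 tested genes with an annotated region (GENCODE release 29), 13.9% carried either word, with a median log2 fold change of -0.04 against 0.0023 in the rest. Of the 1832 carriers 563 (30.7%) fell and 401 rose. Of the 11327 genes in the rest, 2660 (23.5%) fell and 2747 rose. Of the 45 replication genes 5 (11.1%) carried one: DTL, POLD3 and TYMS, which fell, and CHAF1B and GINS4, which were not called. The 40 genes without either word had a median of -0.09, with 13 falls and 5 rises. Shown, on the sense strand with the word in capitals and the coordinates of the word on GRCh38, are 4 of the sites.
DTL, chr1:212104413-212104419: tagaattgctcTGGTCAAaaccaagcacac
POLD3, chr11:74640799-74640805: gagacttggagTGGTCAAgggagaagacca
TYMS, chr18:673096-673102: aaaaggaactaGGTCAAAaatctgtccgtg
CHAF1B, chr21:36417762-36417768: gacaccatgccTGGTCAAatggtatctgtt
In DTL and CHAF1B the words overlap as TGGTCAAA, and the log2 fold changes of these carriers were -0.30 (called) and 0.11 (not called). The 13 genes without either word that fell include FEN1, CDC25A, POLD1, POLD2, PCNA and RPA1. Whether the words had a part in any of these changes was not tested.

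The other genes of the pathway, in a list of 43 with further initiation, fork, nucleotide and chromatin factors, were also counted. Of the 43, 19 fell, 6 rose and 18 were not called, with a median log2 fold change of -0.10. Among all tested genes 20.8% fell and 20.7% rose. Within the CPM range of the 45 replication genes 27.6% fell and 26.7% rose, while the 43 span 2.09 to 568 CPM. With library-size-only scaling 14 of the 43 fell and 9 rose, beside 16.4% lower and 26.1% higher among all tested genes. The largest falls by p were TOP1 (-0.68), the topoisomerase that relaxes DNA ahead of the fork, RRM2B (-0.65), a second small subunit of ribonucleotide reductase and a p53 target, CUL4A (-0.42), the scaffold of the ligase that DTL serves, and POLE3 (-0.43), a histone-fold subunit of polymerase epsilon. TOP1 went from 194, 186 and 189.7 CPM to 119, 125 and 113 CPM, and RRM2B from 130.2, 122 and 129 CPM to 84.7, 83.5 and 74.1 CPM, beside RRM1 and RRM2 above. The rises included TOP2A (0.27), the topoisomerase that separates daughter strands, DONSON (0.30), an initiation factor, and ATAD5 (0.21), which unloads PCNA. The groups of ATAD5 overlapped. It was not called without siTCF19 replicate 2 (0.13, adjusted p = 0.13) or in the test on log2(FPKM + 1) (0.18, adjusted p = 0.107).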

How the data were processed

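RNA-seq was analysed from 3 siNC and 3 siTCF19 libraries of Ishikawa cells. The authors deposited 1 table with read counts and FPKM values per gene and library, per the file headers. The submitters' processing notes name HISAT2 2.0.5, featureCounts 1.5.0-p3 and hg38. Whether counting used strand: not given in the sources used here. In the table, all 58735 genes equalled GENCODE release 29 in identifier, start, end and strand. The deposited table also holds the authors' normalized mean signal per group, log2 fold change, p-value and adjusted p-value, from a tool that no source used here names.

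The counts were filtered with filterByExpr, scaled by TMM and tested with edgeR 4.0.16 (quasi-likelihood, R 4.3.3), with group as the only term and Benjamini-Hochberg adjustment over 17299 genes; ± marks a standard error, and intervals are at 95%. The libraries were treated as unpaired. The steps were tested on simulated data with planted changes of 1.5-fold or more. No replication gene changed by that much, so the simulation does not cover changes of their size. The gene members, lists, words and alternatives (other scalings and filters, DESeq2 1.42.0, limma 3.58.1 with voom or on log2(FPKM + 1), a replicate block, a stricter threshold, each library left out) were chosen with earlier results of these data known. Values in every library are given for up to 4 genes of lowest p in each role and the most abundant one; promoters for the genes of lowest p. Of the other replication genes, up to 4 of lowest p in each direction are named, and 1 of these is not reported here. Motifs and words were searched in RefSeq promoters and GENCODE basic transcripts with 3′ untranslated regions of at least 50 bases.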

Additional observations from a re-analysis of the deposited data

How the results depend on the processing

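Of the 21 replication genes called, 14 kept their call and sign under all 15 alternatives with their own fit, and 7 (ORC1, ORC6, CDC6, RPA2, RRM1, DUT and SLBP) lost it under at least 1. Of the 24 not called, 18 were called under none of them and 6 under at least 1. The number that fell was 10 with library-size-only scaling and 12 to 16 with 1 library left out. The number that rose was 7 and 4 to 6. Among all tested genes, 16.4% fell and 26.1% rose with library-size-only scaling. With 1 library left out, 17.4% to 18.7% of all tested genes fell and 18.0% to 19.5% rose. The median log2 fold change of the 45 genes was -0.0417 with library-size-only scaling, -0.0907 on log2(FPKM + 1) and -0.0902 to -0.0657 with 1 library left out, and it stayed below 0 throughout. Leaving out a library leaves fewer samples, and the nearest value to 0 came without siTCF19 replicate 3. The 43 other replication genes had 3 rises on log2(FPKM + 1) and 3 at an adjusted p under 0.01, against 6 in the report and 4 to 9 under the other alternatives, with 9 rises and 14 falls under library-size-only scaling. With the replicate number as a block, 14 of the 45 genes fell and 4 rose, with a median of -0.10. In that fit 19.9% of all tested genes fell and 19.8% rose. Deviations of same-numbered libraries correlated at 0.0086, -0.024 and 0.021, and only the libraries numbered 3 correlated best with their own number, so the numbers were not taken to pair the libraries. Depth limits the low genes most: the standard error of the log2 fold change was 0.12 for GINS3 and 0.04 for PCNA. Of the 45 genes, 22 share exonic bases with another annotated gene and 10 have pseudogenes named after them. The counts of these genes are less certain. The shared part is over 25% in 2 of them, TYMS and POLA2, and is 23.6% in GINS4, 21.6% in PRIM1 and 20.2% in RRM2.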

Other observations

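Genes of G2 and mitosis, were counted in the same libraries in a list of 26: 8 fell, 2 rose and 16 were not called, with a median log2 fold change of -0.04. The 30.8% that fell and 7.69% that rose stand beside 20.8% and 20.7% of all tested genes, and beside 27.6% and 26.7% of the genes within the CPM range of the replication genes. That range is 15.4 to 274 CPM, while the 26 genes span 3.22 to 757 CPM. CDC20, the activator of the anaphase-promoting complex, fell by 20.5% (95% interval -25.8% to -14.8%), and the proliferation marker MKI67 fell by 10.2% (-15.3% to -4.72%). CDC25C had the largest fall of the list, 23.2% (-32.5% to -12.7%), and CCNB1, PTTG1, BIRC5, CENPF and PLK1 also fell. The only 2 rises were those of KIF23, a cytokinesis motor, by 22.4% (13.8% to 31.7%), and CDK1, by 13.7% (5.91% to 22.0%). These values stand beside the replication genes as measured, and their part in the changes of those genes was not tested.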
